A study of Mus musculus with 24 samples.

Results

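Heat shock proteins of the HSP70, HSP110, HSP90, HSP60 and HSP10 families, together with a J-domain partner, were followed through the step from meiotic to haploid germ cells of the mouse, in WT animals and in those of a Nutm1 knockout genotype. The set was chosen by gene symbol and held 10 genes: Hspa1l, Hspa2, Hspa4l, Hspa8, Hsp90aa1, Hsp90ab1, Hspd1, Hspe1, Hsph1 and Dnajb1. Of these, 9 had a probe and all 9 were detected, among 10076 named genes and 2629 unnamed probes tested. The 9 genes were read by 17 probes, of which 16 were detected often enough to be used. Hsp90ab1 had no probe listed and was not analysed here.

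Heat shock proteins are molecular chaperones that keep other proteins from clumping and help them to fold. An HSP70 clamps onto an unfolded stretch of protein, a J-domain protein such as Dnajb1 brings it there and starts its ATP hydrolysis, and an HSP110 such as Hsph1 or Hspa4l swaps its ADP for fresh ATP so that it lets go. HSP90 takes over clients later in folding, and the HSP60 ring (Hspd1) with its HSP10 lid (Hspe1) folds proteins inside mitochondria. Germ cells of the mouse testis carry HSP70 forms of their own: Hspa2 is made in spermatocytes, where it is needed to finish meiosis, and Hspa1l is a testis form that is made mainly in spermatids. Hspa8 is the HSP70 that nearly all cells make without heat stress.

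RNA came from testes of adult male mice of the strain background B6/129sv, either wild type (WT) or labelled Nutm1_KO (KO), a genotype that the design text instead calls a knock down of Nut. Nutm1 encodes Nut, a nuclear protein of the testis. Fractions rich in spermatocytes or in round spermatids, which per the labels include early elongating cells, were taken by sedimentation through a gradient of BSA. Replicates 1 to 3 of each of the 4 groups were separate fractionations, each pooling 2 WT or 3 KO mice, and replicates 4 to 6 were mixtures of their RNA (replicate 1 mixed with 2, 2 mixed with 3 and 1 mixed with 3). All main comparisons use the 3 direct arrays per group. The fractions are enriched, not pure, so fewer cells of a type and less RNA per cell cannot be told apart. All signals below are normalised log2 bead-array signals, and a difference of 1 means a doubling.

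The 12 direct arrays had median raw signals of 136.3 to 171.3 and detected 13849 to 16244 of 45281 probes. Nutm1 read 8.52, 8.40 and 8.18 in WT round spermatids but 6.81, 6.75 and 7.03 in those of KO, which was -1.50 relative to WT (SE 0.24, adjusted p = 0.00156). The authors' quantile-normalised values gave -0.94 (adjusted p = 0.000335). The probe was still detected on all 3 KO round spermatid arrays and rose by 1.24 from KO spermatocytes (SE 0.24, adjusted p = 0.00148), so the signal was reduced and not absent. Whether it lies outside the deleted part is not known here. In spermatocytes its difference of -0.65 did not pass (adjusted p = 0.546). The mean log2 signal of 18 measured round spermatid markers was 13.08 to 13.17 in WT and 12.91 to 13.05 in KO round spermatids, and 11.49, 11.67 and 12.43 in the 3 WT spermatocyte fractions. KO spermatocyte fractions read 11.75 to 11.91, so that WT replicate 3 was the spermatocyte fraction highest in spermatid markers. Between the stages 14 of the 18 were higher in round spermatids in WT and 15 in KO, beside 28.4% and 26.4% of all features. Tnp1 rose by 1.09 in WT, from 13.56 in spermatocytes. Prm1 was bright in both fractions, at 14.81 in WT spermatocytes and 15.07 in WT round spermatids, and did not pass (0.26, adjusted p = 0.157, and 0.09 in KO, adjusted p = 0.652). The mean of 15 spermatocyte markers was 9.94 to 10.05 in WT spermatocytes and 9.57 to 9.89 in WT round spermatids. In KO it was 9.67 to 10.17 in spermatocytes and 9.96 to 10.12 in round spermatids. In WT round spermatids 6 of the 15 were lower and 3 higher, beside 31.9% and 28.4% of all features. In KO 5 were lower and 3 higher, beside 24% and 26.4%. Their median difference, round spermatids minus spermatocytes, was -0.39 in WT and 0.38 in KO. The synaptonemal gene Sycp1 was dim, with means of 5.87 in WT spermatocytes and 6.20 in WT round spermatids. Its stage difference did not pass (0.33 in WT, SE 0.45, adjusted p = 0.545). Markers of Leydig cells, the steroid-making cells outside the tubules, ranged from 7.90 to 12.01 in spermatocytes and from 5.96 to 8.13 in round spermatids.

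The mixed arrays stood apart for many probes. A mixture of RNA should read between its sources, yet all 3 mixed arrays read above both of their sources at 8 of the 16 heat shock probes in WT spermatocytes and at 9 of 16 in KO spermatocytes. In round spermatids this held for 1 of 16 probes in WT and 3 of 16 in KO. Over all 17401 probes kept, the shares were 9.19% and 22.2% in WT and KO spermatocytes and 5.82% and 6.98% in WT and KO round spermatids. The reverse occurred too: all 3 mixed arrays read below both sources at 8.81% and 22.6% of all probes in WT and KO spermatocytes. In WT and KO round spermatids these shares were 7.46% and 8.87%. The gap was wide for the main Hsp90aa1 probe, where the mixed spermatocyte arrays read 11.30 to 11.77 in WT and 12.06 to 12.38 in KO. No direct array of either stage read above 10.84 at that probe. A dimmer Hsp90aa1 probe read below both sources on all 3 mixed arrays of both spermatocyte groups. Its mean gap to the sources was -0.55 in WT and -0.56 in KO. The cause was not tested. The mixed arrays enter no main comparison, although they were normalised together with the direct arrays, and values that include them are named as such.

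**Figure D1:**
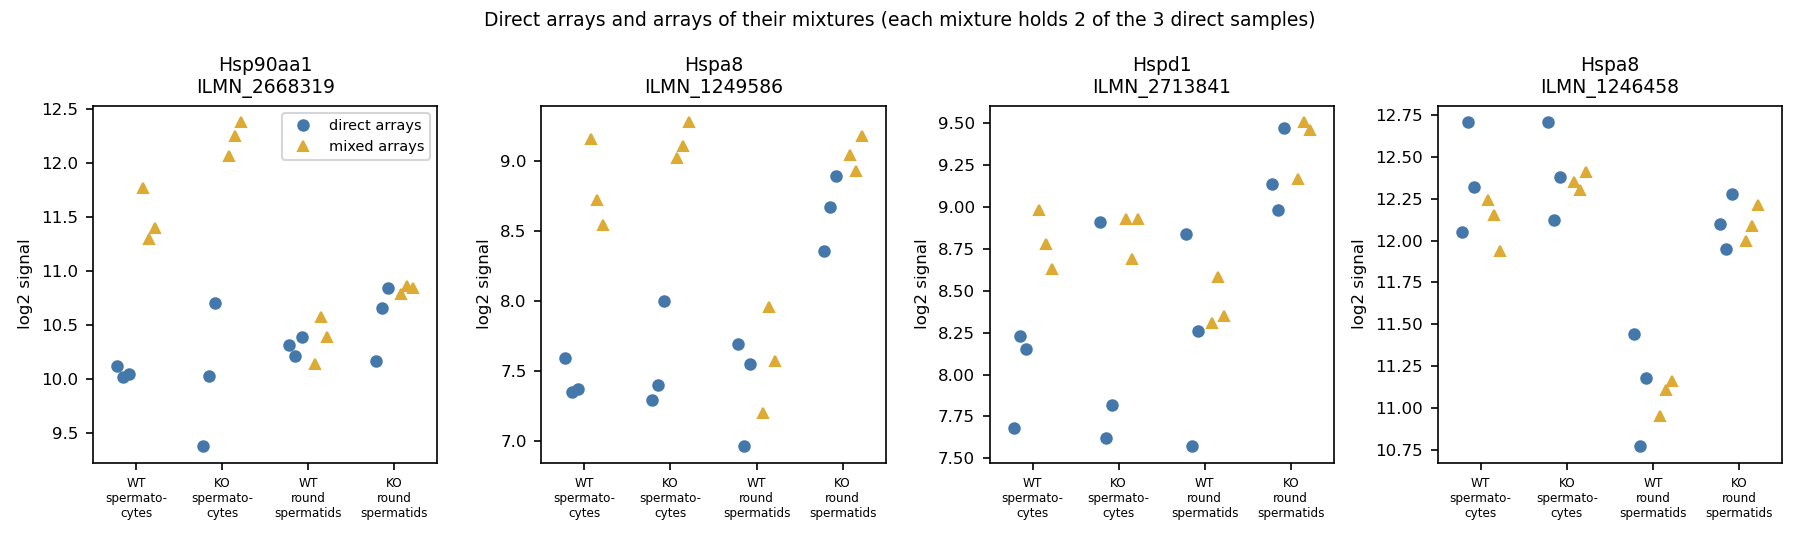
Log2 signal of 4 heat shock probes on the direct arrays (circles, 3 per group) and the mixed arrays (triangles, 3 per group). The Hsp90aa1 probe and the Hspa8 probe ILMN_1249586 read higher on every mixed spermatocyte array than on any direct spermatocyte array, while the main Hspa8 probe ILMN_1246458 read 11.94 to 12.41 on the mixed and 12.05 to 12.71 on the direct spermatocyte arrays.

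Promoter windows from RefSeq (mouse assembly GRCm38.p6, 250 bases before to 50 after each gene's start) were at hand for 7 of the 10 genes, 10 windows in all. They are shown because the genes share a stress family but not a stage pattern. They were searched on both strands for the paired units of the heat shock element (GAANNTTC and TTCNNGAA, which can overlap each other), for TGACG, which is part of the cyclic AMP response element, and for CCAAT. The windows printed belong to the testis HSP70s, to the J-domain gene whose signal followed that of Hspa2 most closely, to Hspe1 of the mitochondrial chaperonin and to the HSP110 gene Hsph1. Each is written from 5′ to 3′ along the gene, with every match in capitals. They lie at chr17:34972453-34972752 (plus strand) for Hspa1l, chr12:76404120-76404419 (plus strand) for Hspa2, chr8:83607925-83608224 (plus strand) for Dnajb1, chr1:55087898-55088197 (plus strand) for Hspe1 and chr5:149636287-149636586 (minus strand) for Hsph1.
Hspa1l: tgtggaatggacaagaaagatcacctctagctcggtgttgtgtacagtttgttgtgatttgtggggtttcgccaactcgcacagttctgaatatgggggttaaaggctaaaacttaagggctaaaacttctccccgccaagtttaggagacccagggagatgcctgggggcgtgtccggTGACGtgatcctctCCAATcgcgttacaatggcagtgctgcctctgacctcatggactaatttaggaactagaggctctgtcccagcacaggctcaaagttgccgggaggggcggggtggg
Hspa2: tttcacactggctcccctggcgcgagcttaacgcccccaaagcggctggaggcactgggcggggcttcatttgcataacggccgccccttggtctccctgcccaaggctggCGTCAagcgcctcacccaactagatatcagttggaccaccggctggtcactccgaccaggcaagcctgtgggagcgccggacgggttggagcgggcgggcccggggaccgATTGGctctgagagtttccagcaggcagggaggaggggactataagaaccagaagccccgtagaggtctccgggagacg
Dnajb1: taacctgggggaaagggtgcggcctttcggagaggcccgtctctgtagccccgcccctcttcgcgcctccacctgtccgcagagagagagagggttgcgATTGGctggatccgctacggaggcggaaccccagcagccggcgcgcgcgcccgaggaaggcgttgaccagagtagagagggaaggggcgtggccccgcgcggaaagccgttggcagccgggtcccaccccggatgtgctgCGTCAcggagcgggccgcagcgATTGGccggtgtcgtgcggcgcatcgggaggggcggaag
Hspe1: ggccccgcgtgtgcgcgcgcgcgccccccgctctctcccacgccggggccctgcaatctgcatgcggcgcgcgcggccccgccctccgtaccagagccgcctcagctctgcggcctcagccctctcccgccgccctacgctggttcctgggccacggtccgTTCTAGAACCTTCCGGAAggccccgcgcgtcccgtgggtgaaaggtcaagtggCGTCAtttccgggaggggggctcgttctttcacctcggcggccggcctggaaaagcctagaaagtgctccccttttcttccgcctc
Hsph1: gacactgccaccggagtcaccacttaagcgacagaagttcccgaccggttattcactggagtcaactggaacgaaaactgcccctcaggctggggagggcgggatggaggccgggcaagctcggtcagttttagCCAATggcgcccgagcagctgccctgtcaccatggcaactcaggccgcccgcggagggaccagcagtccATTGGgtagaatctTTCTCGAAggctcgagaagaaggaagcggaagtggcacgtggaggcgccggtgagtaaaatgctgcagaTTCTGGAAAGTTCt

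Neither testis HSP70 window held a heat shock element unit, nor did the Hspa4l window, either Dnajb1 window or the first Hspd1 window. The Hspa1l window held TGACG with its first base 71 bases before the start and CCAAT 57 bases before it, and the Hspa2 window held them 139 and 29 bases before the start. The first of 2 Dnajb1 windows held TGACG 11 bases before the start and CCAAT 151 bases before it and 11 bases after it. The Hspe1 window held 3 overlapping heat shock element units between 89 and 79 bases before the start, and a window of its neighbour Hspd1, which is read in the opposite direction from the same stretch, held the same letters. The Hsph1 window held a unit 33 bases before the start and 2 that overlap 36 and 41 bases after it. Either unit was found in 4 of the 10 windows, which belong to 3 genes, against 15.1% of 32851 RefSeq windows of the mouse. TGACG was found in 6 of 10 windows against 20.8%, and CCAAT in 6 of 10 against 37.4%. Several of these windows overlap, and a match describes letters only.

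The comparison of round spermatids with spermatocytes in WT asks which chaperone transcripts differ between these fractions, which are enriched and share marker RNA. Hspa1l and Hspe1 were higher in round spermatids, while Hspa2, Hspa8, Hspa4l, Hsph1 and Dnajb1 were lower. These 2 rises and 5 falls among 9 genes stand beside 60.3% of all features that passed in this comparison (28.4% higher and 31.9% lower, limma, adjusted p under 0.05). In KO, Hspa1l, Hspe1 and Hspd1 were higher and Hspa4l, Hsph1 and Dnajb1 lower, 3 rises and 3 falls among 9 genes beside 50.4% of all features (26.4% higher and 24% lower). With every probe tested on its own, 60.1% of all probes kept passed in WT and 50.3% in KO. The median difference of the 9 genes was -0.66 in WT and -0.29 in KO, where that of all features was -0.12 and 0.01. Under cyclic loess scaling the WT median of all features moved to 0.09 and that of the 9 genes to -0.51. Markers of other cells moved between the fractions too: in WT all 4 measured Leydig markers were lower in round spermatids, and 6 of 9 Sertoli and 9 of 14 macrophage markers were higher. All 3 measured erythroid markers were higher in round spermatids of both genotypes, with means of 5.86 to 6.26 in WT and 5.37 to 5.98 in KO spermatocytes and 8.88 to 9.94 in WT and 7.66 to 8.81 in KO round spermatids. Their part in the stage differences was not tested. The count in KO dropped to 3 without replicate 1 of the KO round spermatids.

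**Figure D2:**
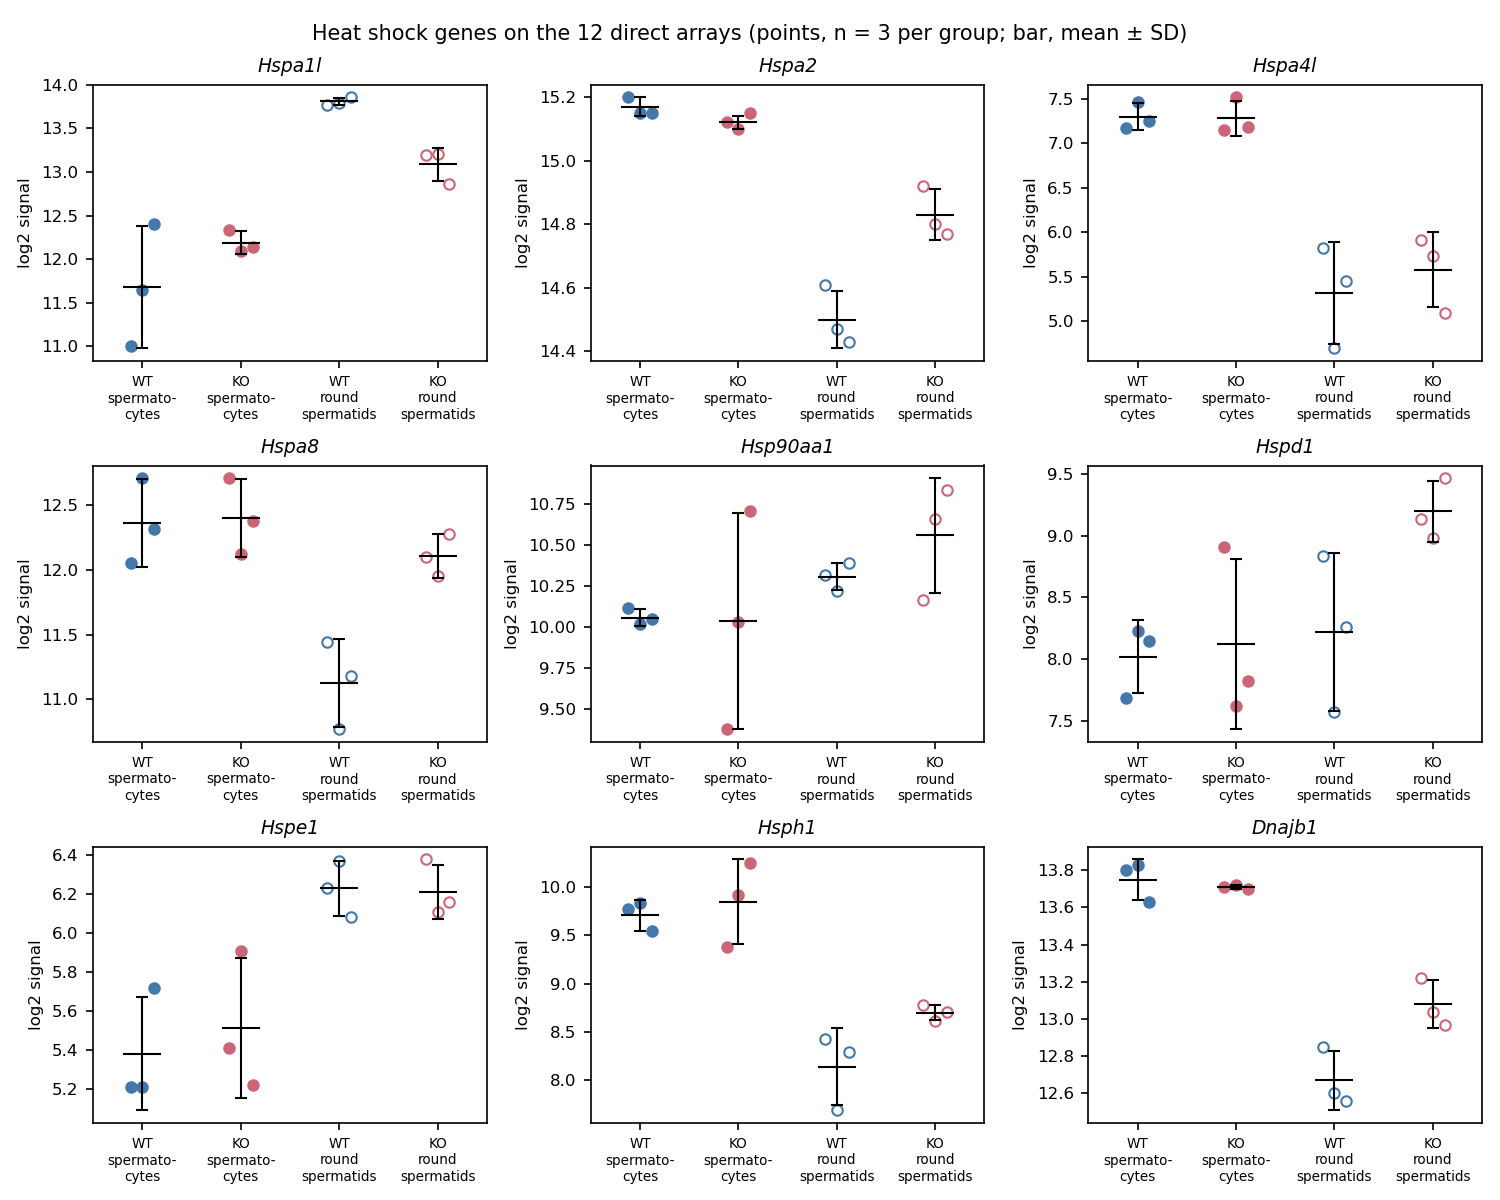
Log2 signal of the 9 measured heat shock genes on each direct array, by group. Points are arrays (3 per group), horizontal bars are means and whiskers SDs. Hspa1l rises from spermatocytes to round spermatids in both genotypes while Hspa4l, Hsph1 and Dnajb1 fall in both and Hspa2 falls in WT, and vertical axes do not start at 0.

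Hspa1l, the spermatid form of HSP70, read 11, 11.65 and 12.40 in WT spermatocytes, 12.34, 12.10 and 12.14 in KO spermatocytes, 13.77, 13.79 and 13.86 in WT round spermatids, and 13.19, 13.21 and 12.86 in KO round spermatids. Every round spermatid array lay above every spermatocyte array in both genotypes. The rise was 2.12 in WT (SE 0.28, adjusted p = 5.69e-05) and 0.89 in KO (SE 0.28, adjusted p = 0.0186). The KO rise lost its call without replicate 1 or 2 of the KO round spermatids or replicate 2 of the KO spermatocytes, with adjusted p of 0.0541, 0.0603 and 0.0522, and stood at 0.05 without replicate 3 of the KO spermatocytes. The spread among WT spermatocytes followed that of the round spermatid markers, which read 11.49, 11.67 and 12.43 on the same arrays in the same order. In KO spermatocytes the markers read 11.91, 11.75 and 11.78. The part of spermatid RNA in these levels was not tested.

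Hspa2, the spermatocyte form of HSP70, was close to the brightest signal of any probe on the direct arrays (15.27). It read 15.20, 15.15 and 15.15 in WT spermatocytes, 15.12, 15.10 and 15.15 in KO spermatocytes, 14.61, 14.47 and 14.43 in WT round spermatids, and 14.92, 14.80 and 14.77 in KO round spermatids. Spermatocytes of both genotypes overlapped and lay above all round spermatids. The fall from spermatocytes to round spermatids was -0.66 in WT (SE 0.14, adjusted p = 0.00126), and the difference of -0.29 in KO did not pass (SE 0.14, adjusted p = 0.0949). The KO difference passed with the authors' values (-0.29, adjusted p = 0.0131) and with no detection filter (-0.29, adjusted p = 0.0186). It also passed with the mean of the probes (-0.49, adjusted p = 0.0159) and with all 6 arrays per group (-0.28, adjusted p = 0.00841), and not in the other settings. A dimmer Hspa2 probe, listed under another transcript record, gave wider differences. It read 14.07, 14.03 and 13.73 in WT and 13.80, 14.03 and 14.24 in KO spermatocytes, then 12.78, 12.61 and 12.47 in WT and 13.41, 13.38 and 13.25 in KO round spermatids. With every probe tested on its own, its fall was -1.32 in WT (adjusted p = 5.35e-05) and -0.68 in KO (adjusted p = 0.00662). Near the top of the scale a probe can understate a difference, and whether it did so here was not tested.

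Hspa8, the constitutive HSP70, read 12.05, 12.71 and 12.32 in WT spermatocytes, 12.71, 12.12 and 12.38 in KO spermatocytes, 11.44, 10.77 and 11.18 in WT round spermatids, and 12.10, 11.95 and 12.28 in KO round spermatids. Only the WT round spermatids stood below all other groups. The stage difference was -1.23 in WT (SE 0.23, adjusted p = 0.000683) and -0.29 in KO (SE 0.23, adjusted p = 0.316). A second probe gave -1.21 in WT (adjusted p = 0.00111) and -0.51 in KO (adjusted p = 0.105). The probe ILMN_1249586 disagreed on the stage pattern, with -0.04 in WT (adjusted p = 0.91) and a rise of 1.08 in KO (adjusted p = 0.00312). That probe is also among those on which the mixed spermatocyte arrays read above their sources.

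Hsph1 and Hspa4l, both HSP110 genes, fell in both genotypes. Hsph1 read 9.77, 9.83 and 9.54 in WT and 9.38, 9.92 and 10.25 in KO spermatocytes, and 8.43, 7.69 and 8.29 in WT and 8.78, 8.61 and 8.71 in KO round spermatids. No round spermatid array reached a spermatocyte array, and the falls were -1.57 in WT (SE 0.24, adjusted p = 0.000166) and -1.15 in KO (SE 0.24, adjusted p = 0.00213). On the mixed arrays alone the KO fall was -2.06. Hspa4l, an HSP110 rich in testis, read 7.17, 7.47 and 7.25 in WT and 7.15, 7.52 and 7.18 in KO spermatocytes, and 5.82, 4.70 and 5.45 in WT and 5.91, 5.73 and 5.10 in KO round spermatids. It was detected on all 6 spermatocyte arrays but on only 1 WT and 2 KO round spermatid arrays, so its low levels sit near the limit of detection. The falls were -1.97 in WT (SE 0.28, adjusted p = 9.97e-05) and -1.70 in KO (SE 0.28, adjusted p = 0.000516). The authors' quantile-normalised values gave smaller falls, -0.81 in WT (adjusted p = 0.000105) and -0.73 in KO (adjusted p = 0.00042). A second Hspa4l probe gave -0.85 in both genotypes (adjusted p = 0.0198 in WT and 0.024 in KO), and the third was detected on no direct array.

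Dnajb1, the J-domain partner of HSP70, read 13.80, 13.83 and 13.63 in WT and 13.71, 13.72 and 13.70 in KO spermatocytes. In round spermatids it read 12.85, 12.60 and 12.56 in WT and 13.22, 13.04 and 12.97 in KO. The arrays of the stages did not overlap, and KO round spermatids lay between WT round spermatids and the spermatocytes. The fall was -1.08 in WT (SE 0.15, adjusted p = 8.67e-05) and -0.63 in KO (SE 0.15, adjusted p = 0.00466). On the mixed arrays alone the KO fall was -0.98.

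Hsp90aa1, the inducible cytosolic HSP90, read 10.12, 10.02 and 10.05 in WT spermatocytes, 9.38, 10.03 and 10.71 in KO spermatocytes, 10.32, 10.22 and 10.39 in WT round spermatids, and 10.17, 10.66 and 10.84 in KO round spermatids. The KO spermatocyte arrays spanned nearly the whole range of the gene. The stage difference was 0.25 in WT (SE 0.28, 95% CI -0.37 to 0.87, adjusted p = 0.464) and 0.52 in KO (SE 0.28, 95% CI -0.10 to 1.14, adjusted p = 0.146). With the preparation as a fixed block, which pairs the stages of the same fractionation, the KO value of 0.52 passed (SE 0.20, adjusted p = 0.0492). It also passed without replicate 3 of the KO spermatocytes, at 0.85 (adjusted p = 0.0144). Dimmer Hsp90aa1 probes gave the opposite sign in both genotypes. They read -0.60 (adjusted p = 0.0873) and -0.51 (adjusted p = 0.128) in WT, and -0.29 (adjusted p = 0.421) and -0.09 (adjusted p = 0.809) in KO.

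The mitochondrial chaperonin genes, which lie head to head in the genome, are described next. Hspe1, the HSP10 lid, read 5.21, 5.21 and 5.72 in WT and 5.41, 5.91 and 5.22 in KO spermatocytes, and 6.23, 6.37 and 6.08 in WT and 6.38, 6.11 and 6.16 in KO round spermatids. It was detected on every round spermatid array but on only 1 WT and 2 KO spermatocyte arrays, and it was higher in round spermatids by 0.85 in WT (SE 0.21, adjusted p = 0.00419) and by 0.70 in KO (SE 0.21, adjusted p = 0.0156). The KO call was lost without replicate 1 of the KO round spermatids or replicate 3 of the KO spermatocytes (adjusted p = 0.0569 and 0.0611). The authors' values gave smaller rises, 0.28 in WT (adjusted p = 0.0189) and 0.23 in KO (adjusted p = 0.0476). In WT the rise was 0.51 with all 6 arrays per group (adjusted p = 0.0434), and on the mixed arrays alone the difference of 0.17 did not pass (adjusted p = 0.541). Hspd1, the HSP60 ring subunit, read 7.68, 8.23 and 8.15 in WT and 8.91, 7.62 and 7.82 in KO spermatocytes, and 8.84, 7.57 and 8.26 in WT and 9.14, 8.98 and 9.47 in KO round spermatids. Only the KO round spermatids stood above all other groups. The Leydig markers read 12.01, 7.90 and 9.93 in the KO spermatocyte fractions and 7.62, 5.96 and 7.01 in the WT round spermatid fractions, in the same order as Hspd1. In the other groups the order differed, and the part of these cells was not tested. The stage difference was 0.20 in WT (SE 0.36, adjusted p = 0.646) and 1.08 in KO (SE 0.36, adjusted p = 0.0264). The KO call was lost without replicate 1 or 3 of the KO round spermatids or replicate 2 or 3 of the KO spermatocytes, with adjusted p from 0.0528 to 0.104. It was also lost with no detection filter (1.08, adjusted p = 0.0673) and with the mean of its probes (0.68, adjusted p = 0.0842), and the mixed arrays alone gave 0.54 (adjusted p = 0.00757). A second Hspd1 probe gave -0.32 in WT (adjusted p = 0.313) and 0.28 in KO (adjusted p = 0.401).

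**Figure D3:**
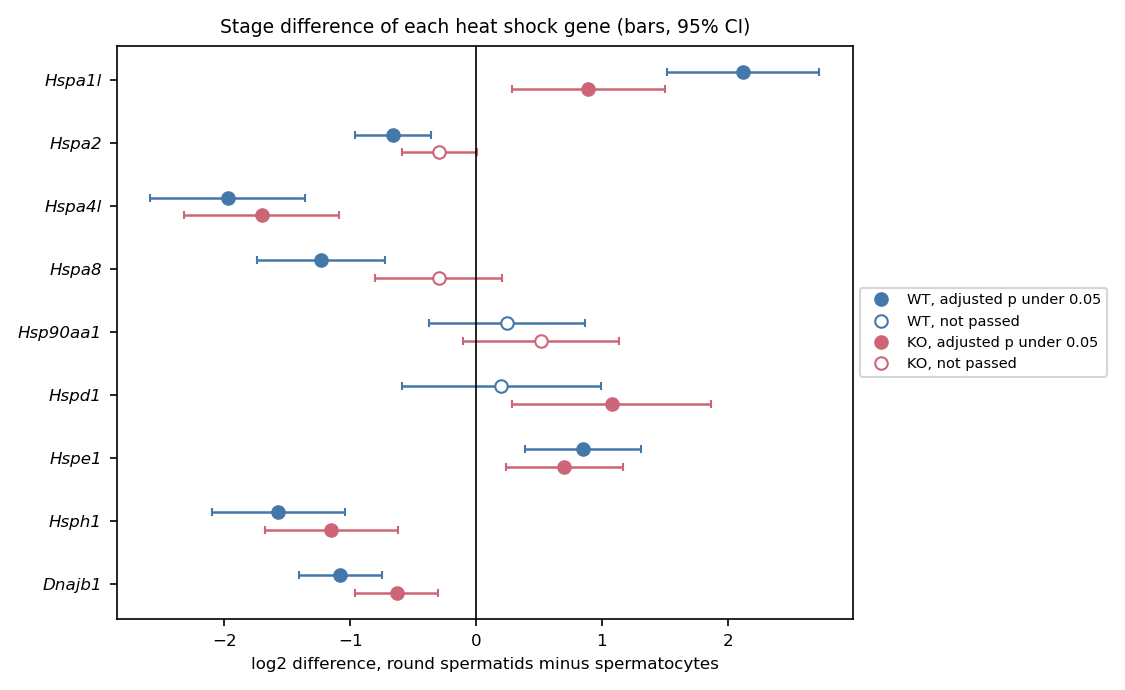
Difference between round spermatids and spermatocytes for each heat shock gene on the log2 scale, in WT (blue) and KO (red), with 95% confidence intervals. Filled points passed at an adjusted p under 0.05, and the WT points of Hspa1l (2.12) and Hspa4l (-1.97) lie farthest from 0 in these values, whereas the authors' values put that of Hspa4l at -0.81.

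Round spermatids of the KO were next set against those of WT, to ask which chaperone transcripts differ between the genotypes in these fractions. Hspa8 was higher in KO round spermatids and was the only heat shock gene of the set that passed. That is 1 of 9 genes, where 14.9% of all features passed (6.89% higher and 7.99% lower). The KO and WT arrays did not overlap for 6 of the 9 genes, with Hspa2, Hspa8, Hspd1, Hsph1 and Dnajb1 higher and Hspa1l lower in KO. Such separation was found for 43.4% of all features (26.1% higher and 17.3% lower). The median difference was 0.33 over the 9 genes and 0.12 over all features. Under cyclic loess scaling these medians were 0.24 and -0.02.

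Hspa8 was higher by 0.98 in KO round spermatids (SE 0.23, 95% CI 0.47 to 1.49, adjusted p = 0.0163), 0.86 above the median of all features. The KO arrays read 11.95 to 12.28 and the WT arrays 10.77 to 11.44. Its other probes gave 1.14 (adjusted p = 0.0102) and 1.24 (adjusted p = 0.00537), so that all 3 probes passed, where 13.5% of all probes kept did. The probes read the same gene in the same RNA, so they are not independent of each other. The call was lost without replicate 1 or 3 of the KO arrays or replicate 2 of the WT arrays, with adjusted p of 0.0505, 0.0702 and 0.0747 and differences of 0.98, 0.89 and 0.80. Immediate early genes, which respond to handling and stress, moved alongside: the mean of 7 measured genes was 8.07 to 8.53 in KO and 7.22 to 7.48 in WT round spermatids, with summed normalised signals of 2994 to 3197 and 1738 to 1940, though 0 of 7 passed. The mean of 14 macrophage markers was 6.82 to 8.11 in KO and 6.29 to 7.12 in WT, with summed signals of 2034 to 5741 and 1931 to 2868, and 1 of 14 passed. H2-Aa and Cd14 were detected on no WT round spermatid array, whereas each of the 14 was detected on at least 1 KO array. The mean of the spermatocyte markers was 9.96 to 10.12 in KO and 9.57 to 9.89 in WT, and 0 of 15 passed. For 9 Sertoli markers the mean was 7.49 to 8.36 in KO and 8.09 to 8.68 in WT. Of these, 3 passed and were lower in KO, beside 7.99% of all features. Among 6 spermatogonia markers 1 was higher in KO, and among 6 peritubular and endothelial markers 1 was lower. The mean of the 3 erythroid markers was 7.66 to 8.81 in KO and 8.88 to 9.94 in WT, with summed signals of 616 to 1347 and 1420 to 2944, and 0 of 3 passed. The mean of 4 Leydig markers was 6.15 to 8.13 in KO and 5.96 to 7.62 in WT, and 0 of 4 passed. Their summed signals were 537 to 5410 in KO and 410 to 2874 in WT. Hspa8 ran in the order of the Leydig markers over the KO spermatocyte arrays and over the WT round spermatid arrays. In the other groups the order differed. The part of these cells and signals in the Hspa8 difference was not tested.

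The other separated genes gave differences that did not pass. Hspd1 differed by 0.97 (SE 0.36, 95% CI 0.18 to 1.76, adjusted p = 0.0894) and passed without replicate 1 of the WT arrays at 1.28 (adjusted p = 0.038). Dnajb1 differed by 0.41 (SE 0.15, adjusted p = 0.0873) and Hsph1 by 0.56 (SE 0.24, adjusted p = 0.135). The bright Hspa2 probe gave 0.33 (SE 0.14, adjusted p = 0.124), whereas the dimmer probe gave 0.73 and passed (SE 0.17, adjusted p = 0.0173). With the authors' values the bright Hspa2 probe (0.33, adjusted p = 0.0211) and Dnajb1 (0.40, adjusted p = 0.0237) passed. Both passed with no detection filter (adjusted p = 0.0303 and 0.0413). Neither passed under cyclic loess scaling (0.34, adjusted p = 0.212 and 0.24, adjusted p = 0.288). Hspa1l was lower in KO by a difference of -0.72 (SE 0.28, 95% CI -1.33 to -0.11, adjusted p = 0.0989), and passed under cyclic loess scaling at -1.01 (adjusted p = 0.0403). Its direction is that of the round spermatid markers, whose summed signal was 195504 to 199502 in KO and 223118 to 230286 in WT. The part of cell composition in this difference was not tested. Hspa4l (0.26, 95% CI -0.36 to 0.87), Hsp90aa1 (0.25, 95% CI -0.37 to 0.87) and Hspe1 (-0.01, 95% CI -0.47 to 0.45) overlapped between the genotypes.

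**Figure D4:**
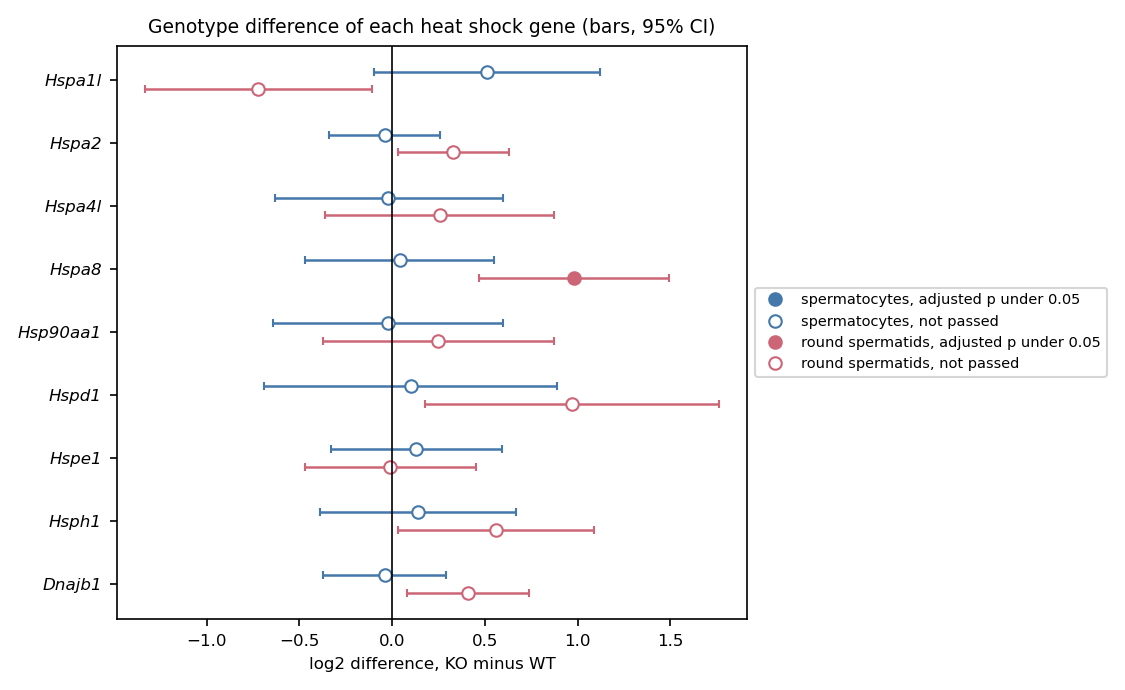
Difference between KO and WT for each heat shock gene on the log2 scale, in spermatocytes (blue) and round spermatids (red), with 95% confidence intervals. The round spermatid point of Hspa8 (0.98) is the only filled point, which marks an adjusted p under 0.05.

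In spermatocytes no heat shock gene passed between KO and WT. By limma 0 of 9 genes passed, where 0.834% of all features passed, and 0 of 9 passed at an unadjusted p under 0.05. The arrays overlapped for all 9 genes, whereas they lay apart for 9.2% of all features. The widest difference was that of Hspa1l, at 0.51 (SE 0.28, 95% CI -0.10 to 1.12, adjusted p = 0.814). It ran from 0.17 without replicate 1 of the WT spermatocytes to 0.87 without replicate 3 (adjusted p = 0.135), and passed with all 6 arrays per group at 0.62 (adjusted p = 0.00765) and on the mixed arrays alone at 0.73 (adjusted p = 0.0022). Hspa2 differed by -0.04 (95% CI -0.34 to 0.26) and Dnajb1 by -0.04 (95% CI -0.37 to 0.29).

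Whether the effect of the KO differed between the stages was tested by the interaction term, and 0 of the 9 genes passed, where 1.49% of all features did. At an unadjusted p under 0.05 there were 2, Hspa1l and Hspa8. Hspa1l gave -1.23 (SE 0.39, unadjusted p = 0.00891, adjusted p = 0.171), and passed without replicate 3 of the WT spermatocytes, the fraction with the most spermatid marker RNA, at -1.59 (adjusted p = 0.0104). Hspa8 gave 0.94 (SE 0.33, unadjusted p = 0.0149, adjusted p = 0.214). The KO effects on these genes in round spermatids are thus not shown to differ from those in spermatocytes.

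By group mean, Hspa1l was lowest in WT spermatocytes (11.68 ± 0.70, SD, n = 3), followed by KO spermatocytes (12.19 ± 0.13), KO round spermatids (13.09 ± 0.19) and WT round spermatids (13.81 ± 0.04), and only the spermatocyte groups overlapped. Hspa2 ran the other way, from WT round spermatids (14.50 ± 0.09) and KO round spermatids (14.83 ± 0.08) to KO spermatocytes (15.12 ± 0.02) and WT spermatocytes (15.17 ± 0.03), and again only the spermatocyte groups overlapped. Hspa8 rose from WT round spermatids (11.13 ± 0.34) to KO round spermatids (12.11 ± 0.17), WT spermatocytes (12.36 ± 0.34) and KO spermatocytes (12.40 ± 0.30), where the last 3 groups overlapped. Over the 12 direct arrays, the named genes whose signal followed that of Hspa2 most closely were Dnajb1 (Pearson r = 0.987), Prkag1 (0.987) and Pde4dip (0.986). For Hspa1l they were Tmem269 (0.989), Socs7 (0.989) and Tle3 (0.986), and for Hspa8 Nucb1 (0.983), P4hb (0.977) and Cdc42 (0.971). These correlations describe 12 arrays that share 4 groups and the make-up of their fractions.

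Of 112 other chaperone, cochaperone and heat shock factor genes listed, 105 had a probe and 79 were measured. From spermatocytes to round spermatids in WT, 19 of these were higher and 33 lower, and in KO 19 were higher and 22 lower. Of all features 28.4% were higher and 31.9% lower in WT, 60.3% in all, and 26.4% and 24% in KO, 50.4% in all, and the counts of each list below stand beside these shares with nothing read from them. Among 10 other HSP70 and HSP110 genes 5 were measured, of which 1 was higher and 2 lower in WT. Hspa9, the mitochondrial HSP70, fell by 1.10 on the log2 scale in WT (SE 0.16, adjusted p = 0.000135) and by 0.77 in KO (SE 0.16, adjusted p = 0.00227), although a second probe did not pass in WT (-0.36, adjusted p = 0.0689) or KO (-0.39, adjusted p = 0.0651), and the mean of the probes gave -0.73 in WT. On the mixed arrays alone the KO fall was -1.38. Hyou1, an HSP110-like chaperone of the endoplasmic reticulum, fell by 1.27 in WT (SE 0.27, adjusted p = 0.00137) and was detected on 1 WT round spermatid array. Hspa13 was higher by 1.24 in WT (SE 0.30, adjusted p = 0.00382). The authors' values gave -0.44 for Hyou1 and 0.57 for Hspa13, which read 1.88 on the mixed arrays alone. Hspa1b, a heat-inducible HSP70, differed by -0.31 in WT (adjusted p = 0.296) and fell by 0.88 in KO (adjusted p = 0.011) (-1.34 with all 6 arrays and -1.80 on the mixed arrays alone). The probes of its near-identical neighbour Hspa1a were each detected on at most 1 direct array, and cross-hybridisation between the genes was not tested. Hspa4, an HSP110, differed by 0.28 in WT (adjusted p = 0.494) and 0.37 in KO (adjusted p = 0.384).

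Both other HSP90 genes were lower in WT round spermatids, Trap1 of the mitochondrion by -1.41 (SE 0.17, adjusted p = 3.74e-05) and Hsp90b1 of the endoplasmic reticulum by -0.80 (SE 0.20, adjusted p = 0.00485). Of 31 measured J-domain genes, 10 were higher and 10 lower in WT. Dnajc3, a J-domain protein of the endoplasmic reticulum, fell by 3.02 (SE 0.26, adjusted p = 5.23e-06), and Dnajc11, a mitochondrial J-domain protein, fell by 1.76 (SE 0.19, adjusted p = 1.51e-05), or by 0.90 in the authors' values. Dnajc28 fell by 2.16 (SE 0.22, adjusted p = 1.23e-05). Dnajb8, a J-domain gene strongly expressed in testis, rose by 2.07 in WT (SE 0.24, adjusted p = 2.63e-05) and by 1.12 in KO (adjusted p = 0.00245), although a second probe did not pass in KO (0.61, adjusted p = 0.0909) and the mixed arrays alone gave 1.74 there. Dnajb13, an axonemal J-domain protein of the sperm tail, was higher by 0.54 in WT (SE 0.19, adjusted p = 0.0288) and 0.77 in KO (adjusted p = 0.00628). The WT call of Dnajb13 was lost without replicate 2 or 3 of the WT round spermatids or replicate 1 or 2 of the WT spermatocytes (adjusted p from 0.0721 to 0.116) and with only the 2 groups fitted (adjusted p = 0.0571). Its WT rise was 0.89 under cyclic loess scaling and 0.86 on the mixed arrays alone, where the KO rise was 1.27. Of 6 measured small heat shock genes 3 were higher and 1 lower, with Odf1 of the sperm tail at 1.05 (adjusted p = 0.00229), Hspb1 at 1.06 (adjusted p = 0.00286, and 0.63 in the authors' values) and Hspb6 at -1.28 (adjusted p = 8.69e-05).

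Of 7 measured genes of the cytosolic CCT chaperonin, which folds actin and tubulin, 4 were lower in WT round spermatids and 0 higher. Cct6a fell by 1.35 (SE 0.17, adjusted p = 3.61e-05), Cct3 fell by 0.87 (SE 0.14, adjusted p = 0.000241) and Cct4 fell by 0.78 (SE 0.14, adjusted p = 0.000463). Under cyclic loess scaling Cct3 fell by 0.54 and Cct4 by 0.46. Of 24 measured cochaperone genes 4 were higher and 11 lower, with Tomm34 at -2.09 (SE 0.19, adjusted p = 5.83e-06), St13, which binds HSP70, at 1.38 (SE 0.15, adjusted p = 1.95e-05) and Chordc1, which binds HSP90, at -2.09 (SE 0.33, adjusted p = 0.0002). The rise of St13 was 0.60 with all 6 arrays per group and did not pass (adjusted p = 0.0839), and the mixed arrays alone gave -0.18 (adjusted p = 0.382). Of the heat shock factors, Hsf1 had no probe listed. Hsf2 was detected on 2 WT and 3 KO round spermatid arrays and on 0 spermatocyte arrays. It thus passed the detection filter only through the group where it is high, and its stage test is not independent of that filter. The log2 differences were 1.18 in WT (adjusted p = 0.000353) and 1.67 in KO (adjusted p = 8.79e-05), and they include signals below detection. Against the lowest detected signal of each spermatocyte array, the mean was at least 1.46-fold higher in WT and 1.58-fold higher in KO round spermatids. These bounds were not tested and hold for the main values only, and the WT mean includes an array without detection. The authors' values gave log2 rises of 0.36 in WT (adjusted p = 0.00586) and 0.55 in KO (adjusted p = 0.000717). On the mixed arrays alone the WT difference of Hsf2 did not pass (adjusted p = 0.055). Hsbp1, which binds heat shock factors, fell by 0.80 in WT by its main probe (adjusted p = 0.00296, and 0.53 under cyclic loess scaling) and rose by 1.40 by its other probe (adjusted p = 0.00014), so that its direction is unsettled.

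Between KO and WT round spermatids 2 of the 79 genes were higher and 2 lower, again beside 14.9% of all features. The CCT subunit genes Cct6a and Cct3 were higher by 0.65 (SE 0.17, adjusted p = 0.0227) and 0.49 (SE 0.14, adjusted p = 0.0383). A second probe gave 0.68 for Cct6a (adjusted p = 0.0285) but did not pass for Cct3 (0.42, adjusted p = 0.0837), whose call was also lost under cyclic loess scaling (0.31, adjusted p = 0.178) and with the replicate number as a fixed block (0.49, adjusted p = 0.0633). Dnajb8 was lower at -1.72 (SE 0.24, adjusted p = 0.000504), read 9.61 in KO and 11.33 in WT by group mean, and its second probe gave -1.79 (adjusted p = 0.00119). Dnajc4 was lower at -0.69 (SE 0.19, adjusted p = 0.031). The count of 4 ran from 1 to 8 when single round spermatid replicates were left out. The Dnajb8 call was kept in each of these, whereas those of Cct6a, Cct3 and Dnajc4 were lost without any KO array and without WT replicate 2 or 3, with adjusted p from 0.0546 to 0.136. The count was 1 without KO replicate 1, 2 or 3 or WT replicate 3, 2 without WT replicate 2, and 8 without WT replicate 1. In spermatocytes 0 of the 79 genes passed, and the interaction term passed for 0.

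**Figure D5:**
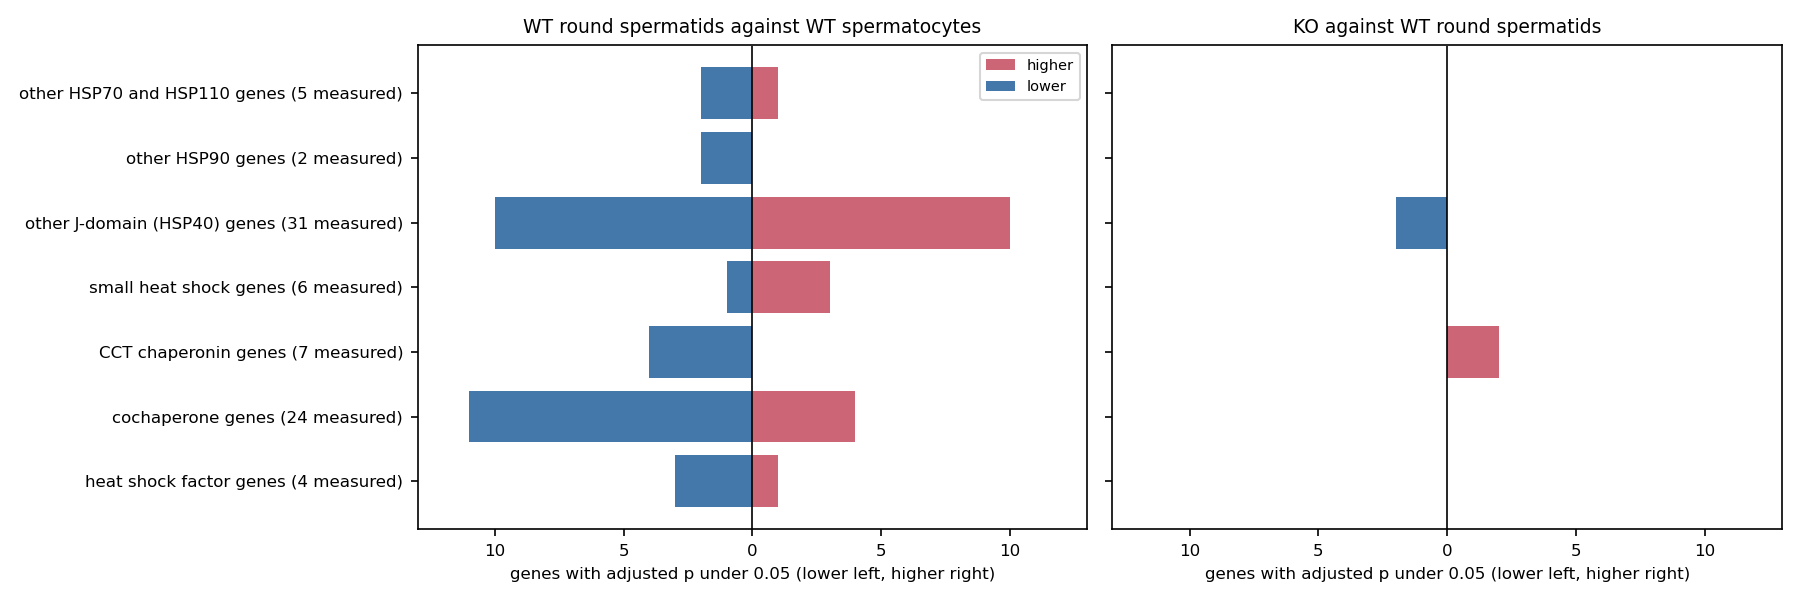
Number of other chaperone genes with an adjusted p under 0.05, lower (left, blue) or higher (right, red), by list. The left panel compares WT round spermatids with WT spermatocytes (19 higher and 33 lower in all), and the right panel KO with WT round spermatids (2 higher and 2 lower).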

How the data were processed

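Expression was measured on Illumina mouse bead arrays, and the deposited table holds a raw mean intensity and a detection p-value for each of 45281 probes on 24 arrays, per the file headers. A second deposited table holds the authors' processed intensity values, which served as an alternative. They matched quantile normalization of the raw values, with a median absolute log2 difference of 9.41e-05. Within each array they ranked the probes as the raw values did (rank correlation 1). The scanning and normalization software versions are not given in the sources used here. Probes were named by the platform annotation (34885 with 1 gene, 18 with several and 10378 with none, of which 34807 gene IDs are in RefSeq). All 24 arrays were background-corrected and quantile-normalized together with neqc in limma 3.58.1 (R 4.3.3, offset 16). A probe was kept when at least 3 of 12 direct arrays gave it a detection p-value under 0.01 (17401 probes, or 38.4%), then the brightest probe of each gene, which left 12705 features. The 4 group means were fitted with lmFit and eBayes (8 residual and 4.07 prior degrees of freedom), tests were two-sided, and p-values were adjusted by Benjamini-Hochberg over all features at 0.05. Other probes of a gene come from a fit over all probes kept. The fit was tested on simulated data. Precision is limited by 3 arrays per group, and each array stands for a pool of mice.

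The members and gene lists were chosen with earlier results of these data known. All members were to be named, with the 3 smallest p-values of each chaperone list that passed, a few fixed chaperones, and the 3 genes most correlated with Hspa1l, Hspa2 and Hspa8. Not every gene that the rule allows is described. Replicate numbers mark a fractionation within a genotype, per the labels, so they pair the stages and not KO with WT. Deviations of same-numbered stages correlated at -0.20 to 0.41 (median 0.22), those of KO and WT at -0.34 to 0.08, and the correlation estimated for a random block was 0.0817. The alternatives were cyclic loess scaling, the authors' values, no detection filter, detection on all direct arrays, the mean of a gene's probes, all 6 arrays per group, array weights, fitting only the groups compared, replicate blocks and leaving out each array. The mixed arrays alone were added after seeing the data.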

Additional observations from a re-analysis of the deposited data

How the results depend on the processing

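The stage comparison in WT was stable when arrays were left out: 7 of 9 heat shock genes passed whichever array was removed. The stage comparison in KO was less so, with 3 to 6 genes passing. Between KO and WT round spermatids, 1 gene passed in the main analysis and 0 to 2 when single arrays were left out. The count was 2 with cyclic loess scaling, 3 with the authors' values, 3 with no detection filter, 2 with the mean of a gene's probes, 2 with only the 2 groups fitted, 5 with array weights, 6 with all 6 arrays per group and 5 on the mixed arrays alone. In spermatocytes it was 1 with all 6 arrays and 3 on the mixed arrays. The interaction term gave 3 with all 6 arrays, 3 on the mixed arrays, 2 with array weights and 0 to 1 when arrays were left out. For the other chaperones, KO against WT round spermatids gave 13 with the authors' values, 8 with no filter, 9 with only the 2 groups, 21 with array weights, 29 with all 6 arrays, 25 on the mixed arrays and 1 to 8 when arrays were left out. Between KO and WT spermatocytes they gave 23 with all 6 arrays and 35 on the mixed arrays. For the interaction term they gave 11 and 10 in these settings, 2 with array weights and 0 to 1 when arrays were left out. Mixtures share RNA with the direct arrays, so the 6 arrays per group are not independent and p-values from them are too small.

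Cyclic loess scaling moved the median of all features from 0.12 to -0.02 for KO against WT round spermatids and the calls from 875 higher and 1015 lower to 396 and 1275. From spermatocytes to round spermatids in WT it moved the calls from 3604 and 4053 to 4303 and 3164. With the replicate block, Hsp90aa1 passed in the KO stage comparison (0.52, adjusted p = 0.0492), and with the replicate number as a term Cct3 lost its call between KO and WT round spermatids (0.49, adjusted p = 0.0633). No other call of the genes named here changed under a block.

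Of 835 single-gene values recomputed without leaving out an array, 759 kept their direction and call, 35 gained a call, 8 lost it and 33 changed sign. Among those that passed in the main analysis, the signs of Hsbp1 (0.30 with the mean of its probes) and St13 (-0.18 on the mixed arrays) turned in the WT stage comparison. The others that turned had not passed, and the cause was not tested. Hsp90aa1 between stages turned to -0.29 with the mean of probes in WT, to -0.44 with all 6 arrays in both genotypes, and to -1.12 in WT and -1.40 in KO on the mixed arrays. Hspa4 turned to -0.09 and -0.49 with all 6 arrays and to -0.46 and -1.35 on the mixed arrays in WT and KO. Hspd1 in WT turned to -0.06 with the mean of probes, -0.09 with all 6 arrays and -0.38 on the mixed arrays, and Hspa8 in KO to 0.09 with the mean of probes. Between KO and WT round spermatids, Hspa4l turned to -0.06 with loess and Hspe1 to 0.00 with array weights. Between KO and WT spermatocytes, Hspa2, Hspa4l and Hsp90aa1 turned to 0.25, 0.01 and 0.03 with loess, and Hspa2 and Hspa4l to 0.02 and 0.12 with the mean of probes. Hspa4l, Hsp90aa1, Hspe1 and Dnajb1 turned to 0.05, 0.36, -0.17 and 0.10 with all 6 arrays and to 0.12, 0.74, -0.47 and 0.25 on the mixed arrays. Hspa8, Hsp90aa1 and Hspd1 turned to -0.32, 0.09 and -0.28 with array weights. When single arrays were left out, KO against WT ranged from -0.06 to 0.50 for Hspa4l and -0.09 to 0.06 for Hspe1 in round spermatids. In spermatocytes it ranged from -0.13 to 0.07 for Hspa4l, -0.12 to 0.22 for Hspa8, -0.35 to 0.31 for Hsp90aa1, -0.30 to 0.34 for Hspd1, -0.07 to 0.30 for Hspe1 and -0.06 to 0.37 for Hsph1. The stage difference ranged from -0.11 to 0.53 for Hspd1 in WT and -0.04 to 0.82 for Hspa4 in KO. Signal near the detection limit bounds Hspa4l and Hspe1. The main Hspa2 probe lies near the top of the scale, and whether that narrows its differences was not tested.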
